A study of Homo sapiens with 2 samples.

Results

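This account covers the DNA replication machinery of HCT116 cells, a human line that was derived from a cancer of the colon, as measured by paired-end RNA sequencing. Its 50 genes were chosen by their known function, not by their values: genes for origin licensing, the replicative helicase, the polymerases, the sliding clamp and its loader, single-strand binding, Okazaki fragment joining and nucleotide supply. Each of the 50 was found by its symbol, with 1 row in each deposited table, among 51640 symbols in all. Both libraries belong to 1 group, untreated HCT116 grown in DMEM with 10% fetal bovine serum and antibiotics to 80% confluence, and the submitters call them biological replicates. They are named PF and PJ, and the labels do not say what the letters mean. The design text sets them against normal colon libraries, which were not analysed here, so the comparisons below are between genes and between the 2 libraries. Values are FPKM, fragments scaled to transcript length and library total, with the 95% bounds that the authors deposited for each gene and library. How many fragments stand behind each library is unknown.

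DNA is copied once per cell cycle. In G1 the origin recognition complex, CDC6 and CDT1 load the MCM2 to MCM7 helicase on DNA, a step called licensing that geminin (GMNN) holds back afterwards. In S phase the kinase CDC7 with DBF4, together with CDC45 and the GINS complex, turns the loaded helicase on. Polymerase alpha-primase then lays primers, polymerase epsilon and polymerase delta extend the leading and lagging strands on the PCNA clamp, and FEN1 and LIG1 finish the lagging strand. Many of these genes are transcribed at the G1 to S boundary under E2F factors, which bind DNA words close to TTTCCCGC or TTTGGCGC, and in the renewing colon epithelium they are a feature of dividing crypt cells.

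Words of this E2F type were common in the promoters of the replication genes. RefSeq promoter windows (build GRCh38.p14, 250 bases before to 50 after an annotated start) matched 44 of the 50 genes by symbol, and 20 of those 44, or 45.5%, held at least 1 of the words TTTCCCGC, TTTCGCGC, TTTGCCGC and TTTGGCGC on either strand. The same words stood in 3.99% of 27305 genes of the promoter table and in 7.03% of 8211 protein-coding genes expressed in both libraries, that is at 1 FPKM or more in each. The following 220-base stretches run 5′ to 3′ on the gene's strand from position -190 to position 29, with the annotated start as position 0, and capitals mark the words. They show 9 genes that hold a word and, for contrast, 2 that hold none of the 4 words. RFC2, 1 of these 2, does hold the shorter word TTCCCGC on the opposite strand. The stretches were chosen after the values of the genes were seen, and the choice follows direction. As deposited, all 9 genes shown with a word were lower in library PJ, and ORC5 and RFC2 were higher. The 20 genes with a word were 10 higher and 10 lower, so the stretches do not represent them in this.
MCM2: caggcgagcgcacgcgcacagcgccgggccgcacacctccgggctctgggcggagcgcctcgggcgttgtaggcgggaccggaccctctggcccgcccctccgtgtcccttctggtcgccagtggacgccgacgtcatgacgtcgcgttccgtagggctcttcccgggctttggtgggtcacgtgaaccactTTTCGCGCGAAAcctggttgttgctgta
MCM3: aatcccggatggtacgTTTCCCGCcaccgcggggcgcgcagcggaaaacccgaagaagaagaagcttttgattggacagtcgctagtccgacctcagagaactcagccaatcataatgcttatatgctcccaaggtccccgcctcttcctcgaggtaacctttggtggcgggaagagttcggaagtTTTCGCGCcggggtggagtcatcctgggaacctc
MCM6: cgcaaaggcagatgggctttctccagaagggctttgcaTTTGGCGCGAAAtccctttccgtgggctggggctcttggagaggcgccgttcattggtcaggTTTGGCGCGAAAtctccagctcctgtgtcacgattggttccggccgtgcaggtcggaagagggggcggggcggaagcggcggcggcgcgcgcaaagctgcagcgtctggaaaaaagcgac
MCM7: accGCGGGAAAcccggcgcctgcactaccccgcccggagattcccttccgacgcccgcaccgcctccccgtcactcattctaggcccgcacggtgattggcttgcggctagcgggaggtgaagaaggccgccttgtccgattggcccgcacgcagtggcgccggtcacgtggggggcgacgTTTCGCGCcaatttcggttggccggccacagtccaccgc
PCNA: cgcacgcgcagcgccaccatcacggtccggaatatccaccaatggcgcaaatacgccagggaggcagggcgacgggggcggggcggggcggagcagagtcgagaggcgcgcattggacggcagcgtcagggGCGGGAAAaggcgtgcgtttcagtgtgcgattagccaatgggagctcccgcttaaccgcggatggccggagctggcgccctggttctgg
CDC6: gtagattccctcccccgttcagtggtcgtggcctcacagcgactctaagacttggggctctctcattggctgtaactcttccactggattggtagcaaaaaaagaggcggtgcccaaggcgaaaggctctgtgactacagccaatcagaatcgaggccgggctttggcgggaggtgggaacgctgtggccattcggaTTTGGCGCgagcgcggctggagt
CDT1: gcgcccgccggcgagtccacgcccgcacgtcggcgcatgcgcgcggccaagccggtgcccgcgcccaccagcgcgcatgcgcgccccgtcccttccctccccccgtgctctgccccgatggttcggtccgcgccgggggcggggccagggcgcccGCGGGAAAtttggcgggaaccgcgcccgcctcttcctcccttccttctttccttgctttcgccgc
POLE: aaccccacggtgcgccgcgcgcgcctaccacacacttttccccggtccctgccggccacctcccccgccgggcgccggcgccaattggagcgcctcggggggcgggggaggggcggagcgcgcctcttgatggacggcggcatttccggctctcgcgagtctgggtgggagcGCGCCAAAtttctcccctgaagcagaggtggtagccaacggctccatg
LIG1: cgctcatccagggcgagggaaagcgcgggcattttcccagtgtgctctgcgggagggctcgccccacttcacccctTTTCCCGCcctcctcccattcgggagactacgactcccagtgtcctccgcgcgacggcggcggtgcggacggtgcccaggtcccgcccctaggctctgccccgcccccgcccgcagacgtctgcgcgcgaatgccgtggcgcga
ORC5: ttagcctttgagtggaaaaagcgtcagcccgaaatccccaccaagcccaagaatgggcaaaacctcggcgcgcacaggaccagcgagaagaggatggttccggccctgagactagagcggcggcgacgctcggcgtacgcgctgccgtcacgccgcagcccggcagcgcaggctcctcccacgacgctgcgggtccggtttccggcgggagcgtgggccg
RFC2: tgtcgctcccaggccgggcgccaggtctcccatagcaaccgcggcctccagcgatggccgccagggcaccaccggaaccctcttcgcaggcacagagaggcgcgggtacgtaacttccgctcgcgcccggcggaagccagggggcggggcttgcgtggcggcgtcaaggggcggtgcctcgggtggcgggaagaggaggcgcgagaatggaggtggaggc

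The stretches lie at chr3:127598221-127598440 (plus strand) for MCM2, chr6:52284713-52284932 (minus strand) for MCM3, chr2:135876414-135876633 (minus strand) for MCM6 and chr7:100101368-100101587 (minus strand) for MCM7. Those of PCNA, CDC6 and CDT1 lie at chr20:5126593-5126812 (minus strand), chr17:40287689-40287908 (plus strand) and chr16:88803599-88803818 (plus strand). POLE lies at chr12:132687313-132687532 (minus strand), LIG1 at chr19:48170315-48170534 (minus strand), ORC5 at chr7:104207984-104208203 (minus strand) and RFC2 at chr7:74254370-74254589 (minus strand). MCM2 and MCM6 carry words on both strands that overlap each other, 1 such pair in MCM2 and 2 in MCM6, and a pair counts as 2 matches. MCM7 has 3 annotated windows and PCNA has 2, and the window shown is the first that holds a word. Of the 27 matches in the 20 genes, 21 began between positions -100 and 25, with a median position of -35. The other 11 genes with a word were ORC3, GMNN, GINS1, GINS2, GINS3, CDC7, POLA1, POLA2, POLE2, POLE4 and RFC3. MCM4, MCM5, GINS4, POLD3, RPA2 and RPA3 had no promoter window and were not searched. The pentamer CCAAT, searched on both strands, stood in 27 of the 44 genes (61.4%, against 39.7% of all genes in the table), and TTTGAA, a word found in promoters of late cell cycle genes, in 4 of 44 (9.09%, against 18.2%). Over the expressed protein-coding genes the shares were 43.7% for CCAAT and 13.0% for TTTGAA. A match describes the letters of the window only.

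**Figure D1:**
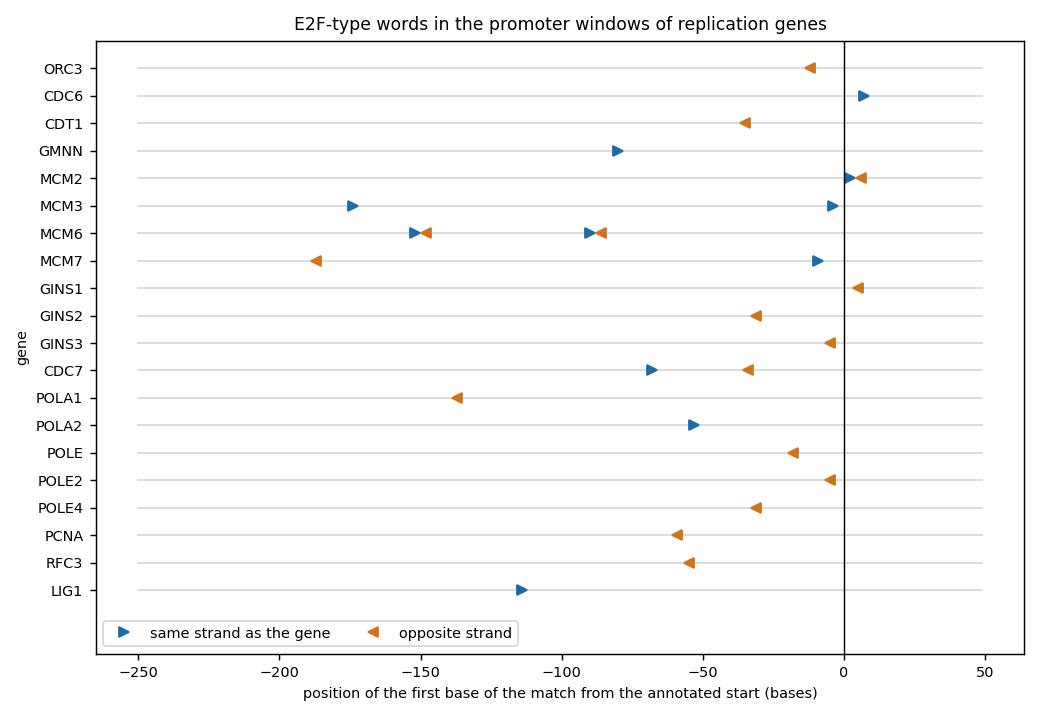
Position of each E2F-type word (horizontal axis, bases from the annotated start) in the 20 replication genes that hold one (vertical axis), with triangles pointing right for the gene's own strand and left for the opposite strand. Of 27 matches, 21 begin between positions -100 and 25.

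All replication genes with a value in both libraries were expressed. Of the 50 genes, 49 had a value in each library and all 49 reached 1 FPKM in both; the share was 27.9% over all 51609 symbols with a value in each and 57.3% over 19038 protein-coding symbols. A level of 10 FPKM in both libraries was reached by 47 of 49, against 14% of all and 31.8% of protein-coding symbols; ORC2, which passed in PJ only, and POLD4 were the others. The median of the members' means was 47.0 FPKM, against 15.4 FPKM for protein-coding symbols expressed in both libraries, and 43 of 49 lay above that second figure. On the scale of mean log2(FPKM + 1) the median was 5.56 for the members, 0.051 for all symbols and 2.21 for protein-coding symbols. The exception without a second value was RFC4, a clamp loader subunit gene at 70.5 FPKM in PF (bounds 67.6 to 74.5), whose estimate in PJ has status FAIL, as has that of EIF4A2, which overlaps it. The genes spanned a wide range, from POLD4 at 4.08 ± 0.455 FPKM (SD, n = 2) to PCNA at 361 ± 136 FPKM (SD, n = 2), and kept much the same order in both libraries: Spearman's rho between PF and PJ was 0.941 across the 49 genes, which are not independent replicates.

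**Figure D2:**
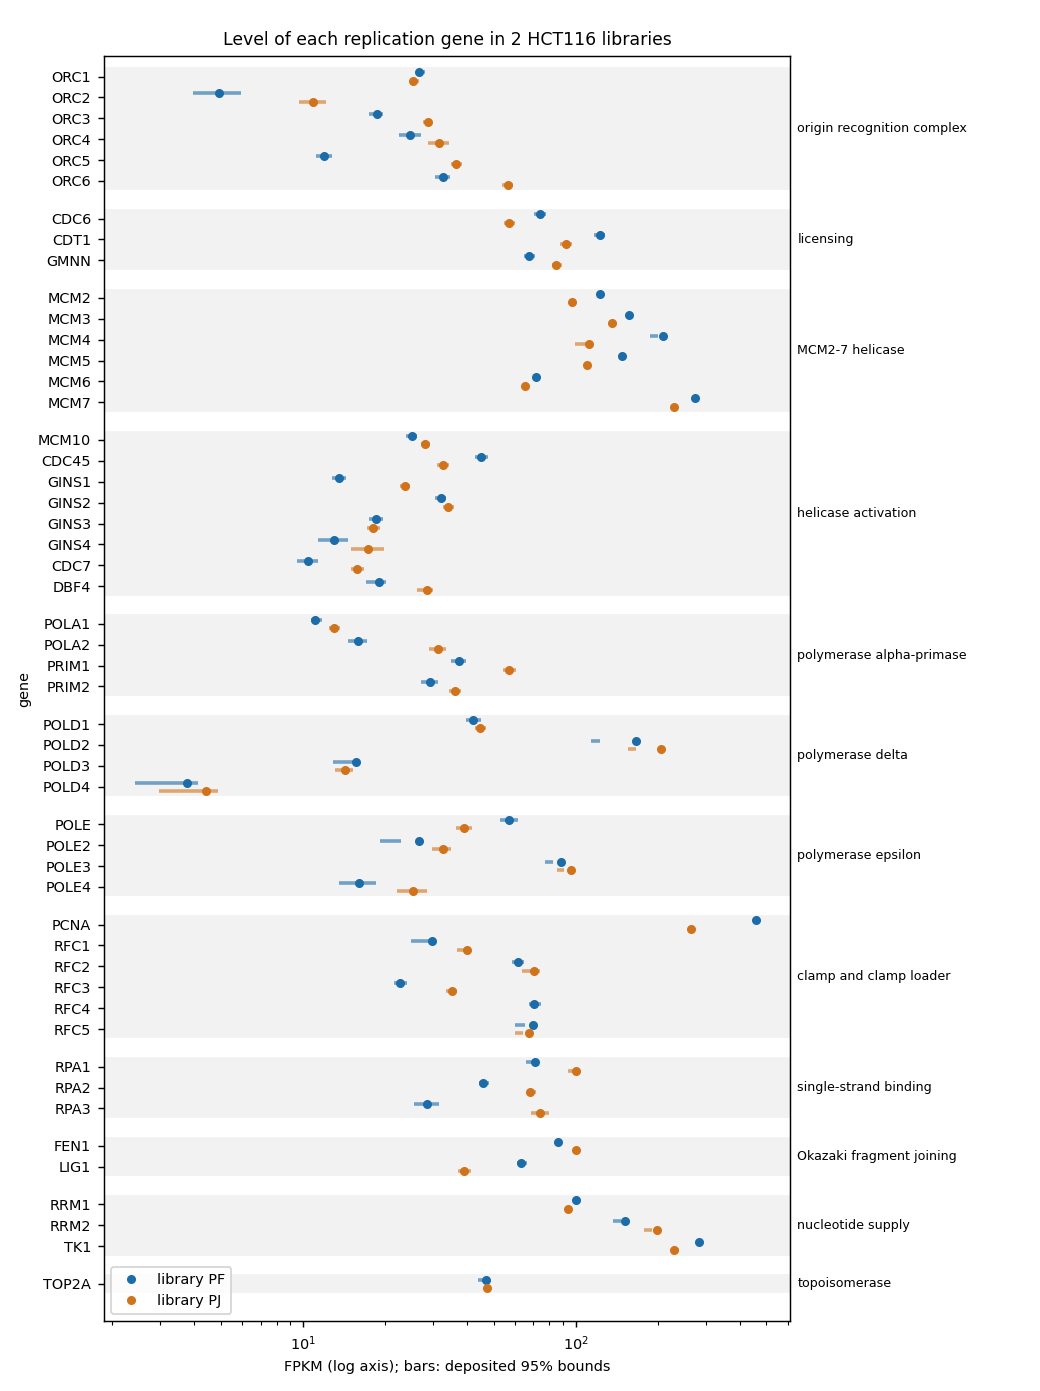
FPKM of each of the 50 replication genes (log axis) in library PF and library PJ, grouped by role, with bars for the deposited 95% bounds. PCNA, TK1 and MCM7 stand highest and POLD4 lowest in both libraries, RFC4 has a value in PF only, and some points lie outside their own bars.

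The libraries are compared as log2 of FPKM + 1 in PJ over FPKM + 1 in PF, called the log2 ratio; each side is 1 library, so no difference has a p-value or a replicate check. Of 15736 symbols whose mean reached 1 FPKM, 10.4% were 2-fold higher or more in PJ and 5.22% were 2-fold lower or more. Of the 49 replication genes 3 were at least 2-fold higher in PJ, namely ORC5, RPA3 and ORC2, and 0 were 2-fold lower, shares close to or under that background. Counting differences of any size, the 3 included, 31 were higher in PJ and 18 lower, and over all tested symbols 65.8% were higher and 34.2% lower. Their median log2 ratio was 0.19, beside 0.22 for all tested symbols, and their quartiles were -0.13 and 0.55, beside -0.17 and 0.60. The whole distribution is shifted: the median PJ to PF ratio was 1.19 (0.25 on the log2 scale) over all expressed symbols. With that ratio divided out, 22 replication genes were higher in PJ (50.5% of all) and 27 lower (49.5% of all), 2 were at least 2-fold higher (ORC5 and RPA3; 6.29% of all) and 2 at least 2-fold lower (MCM4 and PCNA; 7.14% of all). The deposited bounds of the 2 libraries lay apart for 26 genes higher in PJ, or 53.1% (44.5% of all tested symbols) and 14 lower, or 28.6% (18.2% of all); these bounds leave out variation between cultures.

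**Figure D3:**
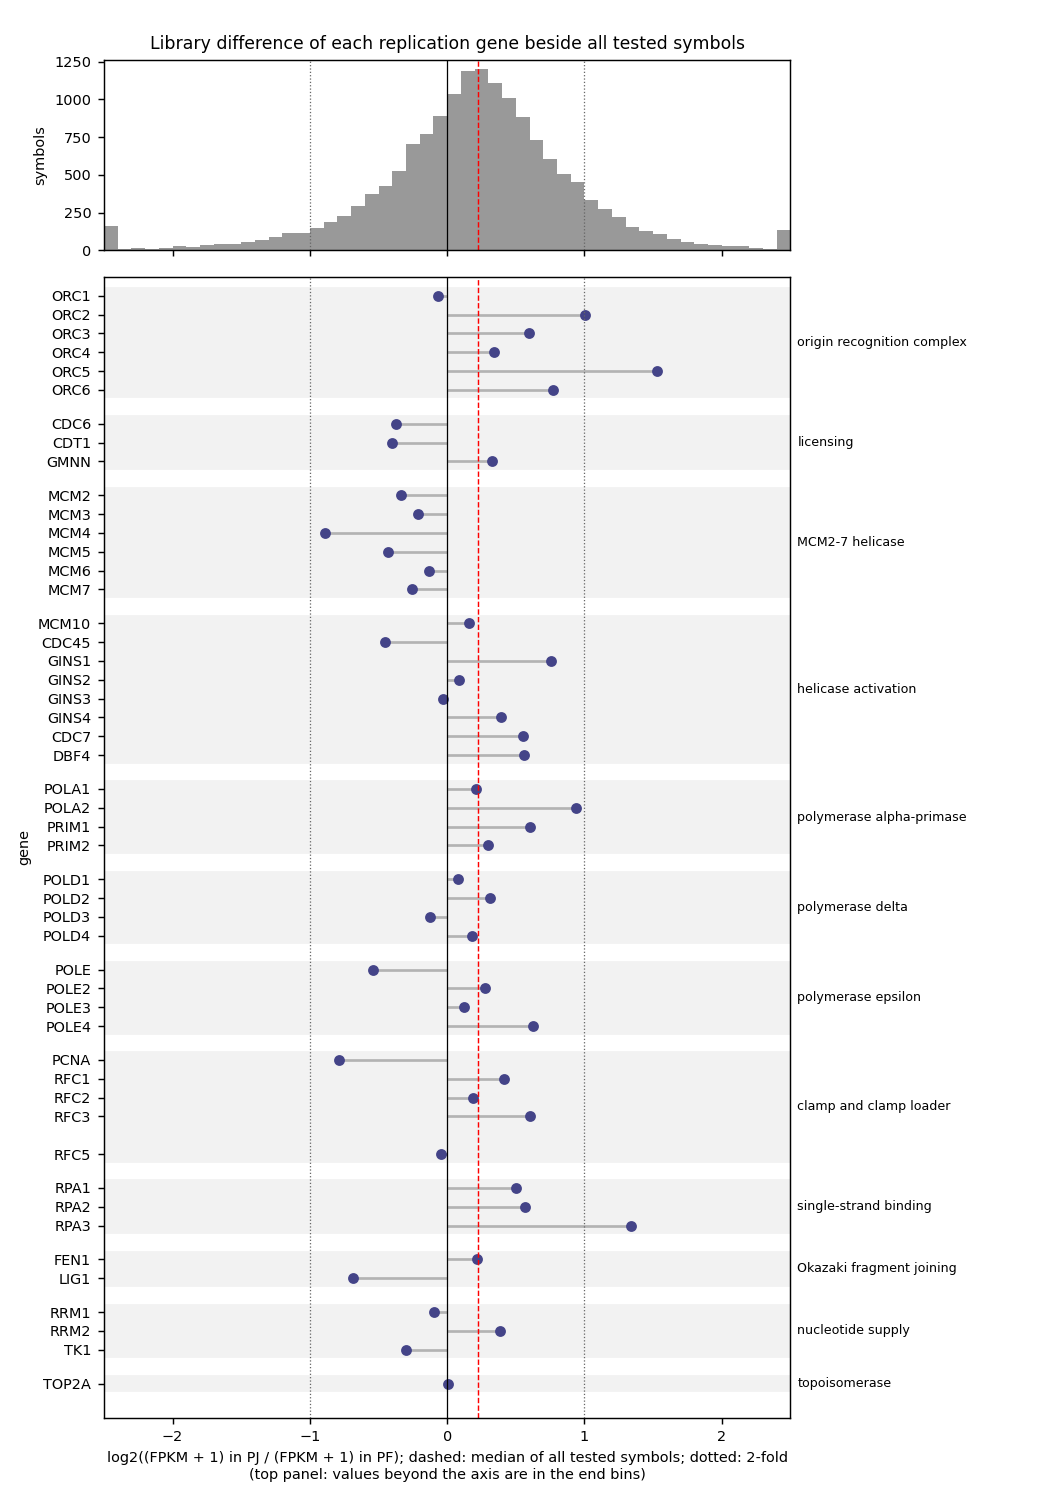
Log2 ratio of PJ over PF (horizontal axis) for all 15736 tested symbols as a histogram (top) and for the 49 replication genes by role (bottom); the dashed line is the median of all tested symbols, 0.22, and dotted lines mark 2-fold. All 6 genes of the MCM2 to MCM7 helicase lie left of 0, and ORC5, RPA3 and ORC2 reach the right dotted line.

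The origin recognition complex, which marks origins and starts licensing, was expressed at moderate levels and was mostly higher in PJ. ORC1, the subunit whose amount is cell cycle regulated, was at 26.7 FPKM (bounds 25.9 to 28.0) for PF against 25.4 (24.6 to 26.7) for PJ, so its bounds overlapped. ORC2 was the lowest subunit, at 4.94 FPKM (bounds 3.95 to 5.95) for PF against 10.9 (9.65 to 12.1) for PJ, and its log2 ratio of 1.00 just reached 2-fold; the next below was 0.94 for POLA2. ORC5 (ENSG00000164815.6; chromosome 7, 103766788 to 103848495, hg19) was at 12.0 FPKM (bounds 11.1 to 12.8) for PF against 36.5 (35.0 to 38.4) for PJ, 3.05-fold apart and the largest difference of the 49 genes. ORC3 was at 18.6 FPKM for PF against 28.7 for PJ, ORC4 at 24.8 and 31.6 and ORC6, the smallest and most loosely held subunit, at 32.7 and 56.4. In all, 5 of 6 were higher in PJ, beside 65.8% of all tested symbols, and also 5 of 6 with the median ratio divided out, beside 50.5%. The median log2 ratio was 0.68. The highest subunit mean was 5.62 times the lowest.

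The licensing factors were more abundant than the origin recognition subunits. As deposited, the 2 loading factors were lower in PJ and their inhibitor was higher. CDC6, the ATPase that recruits the helicase to the origin, was at 74.0 FPKM (bounds 70.1 to 78.0) for PF against 57.0 (54.7 to 59.8) for PJ. CDT1, which brings the helicase to CDC6, was at 122 FPKM (bounds 117 to 128) for PF against 92.2 (87.7 to 96.9) for PJ. Both were lower in PJ with bounds apart, at log2 ratios of -0.37 and -0.40. GMNN, which encodes the CDT1 inhibitor geminin, was at 67.7 FPKM (bounds 64.6 to 71.2) for PF against 85.0 (81.8 to 89.2) for PJ, higher in PJ. Its log2 ratio was 0.32, beside a median of 0.22 for all tested symbols. With the median ratio divided out GMNN was at 0.080, CDC6 at -0.61 and CDT1 at -0.65. Of all tested symbols 44.5% were higher in PJ with bounds apart and 18.2% lower.

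The helicase genes MCM2 to MCM7 were among the most abundant members, and all 6 were lower in PJ with bounds apart. Their proteins form a ring of 1 copy each that unwinds DNA. MCM7 (ENSG00000166508.13; chromosome 7, 99690351 to 99699563, hg19) was highest at 274 FPKM (bounds 274 to 282) for PF against 229 (229 to 237) for PJ, and MCM6 lowest at 71.4 FPKM (bounds 70.0 to 74.0) for PF against 65.2 (64.0 to 67.6) for PJ. MCM4 had the largest difference, at 209 FPKM for PF against 112 for PJ, 1.86-fold, although its estimates lay above their own bounds (188 to 201 in PF and 99.9 to 109 in PJ). MCM2 was at 123 FPKM for PF against 97.2 for PJ, MCM3 at 157 and 135 and MCM5 at 148 and 110.0. The median log2 ratio was -0.29, from -0.89 to -0.13, and -0.54 with the median ratio divided out. None of the 6 differed 2-fold as deposited. Of all tested symbols 34.2% were lower in PJ, 18.2% with bounds apart. Subunit means differed 3.69-fold from highest to lowest.

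The genes that switch the helicase on were expressed well below the helicase itself. Their means ran from 13.1 FPKM (CDC7) to 38.9 (CDC45), against 68.3 to 252 for MCM2 to MCM7. CDC45, a helicase cofactor, was at 45.1 FPKM (bounds 42.7 to 47.5) for PF against 32.7 (31.0 to 34.4) for PJ, the only one of the 8 lower in PJ with bounds apart. The GINS subunits were at 13.6 FPKM for PF against 23.7 for PJ for GINS1, 32.0 and 34.1 for GINS2, 18.6 and 18.1 for GINS3 and 13.0 and 17.4 for GINS4. GINS1 and GINS4 were higher in PJ with bounds apart, and those of GINS2 and GINS3 overlapped. CDC7, the kinase that phosphorylates the loaded helicase, was at 10.5 FPKM for PF against 15.8 for PJ, and DBF4, its activating subunit, at 19.0 FPKM for PF against 28.5 for PJ; both were higher in PJ, with bounds apart. MCM10, needed for helicase activation, was at 25.1 FPKM for PF against 28.1 for PJ, with bounds apart. In all, 5 of the 8 were higher in PJ with bounds apart and 1 lower, beside 44.5% and 18.2% of all tested symbols. With the median ratio divided out 4 were higher and 4 lower, with MCM10 at -0.080 and GINS2 at -0.15.

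Polymerase alpha-primase genes were higher in PJ in 4 of 4 cases, with bounds apart, as were 44.5% of all tested symbols. POLA1, the catalytic polymerase subunit, was the lowest at 11.1 FPKM for PF against 13.0 for PJ. POLA2, the regulatory subunit, was at 15.9 FPKM (bounds 14.6 to 17.2) for PF against 31.4 (28.9 to 33.5) for PJ, a log2 ratio of 0.94. The primase genes PRIM1 (catalytic) and PRIM2 (regulatory) were at 37.2 FPKM for PF against 57.1 for PJ and at 29.2 and 36.1. With the median ratio divided out POLA1 was at -0.016 and the other 3 were above 0.

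Subunits of the 2 replicative polymerases were far from equal in transcript level. In polymerase delta, POLD1, the catalytic subunit, was at 42.1 FPKM for PF against 44.4 for PJ, and the accessory subunits POLD2, POLD3 and POLD4 were at 166 and 206, 15.6 and 14.2 and 3.76 and 4.40 FPKM, so that the highest mean was 45.7 times the lowest. POLD2 lay above its own bounds in both libraries (114 to 123 in PF and 156 to 167 in PJ), and even its lower bounds exceeded every other polymerase delta value. It was higher in PJ with bounds apart, and those of POLD1, POLD3 and POLD4 overlapped. In polymerase epsilon, POLE, the catalytic subunit, was at 57.0 FPKM (bounds 52.9 to 61.4) for PF against 38.9 (36.5 to 41.8) for PJ, the only 1 of the 4 lower in PJ. POLE2 was at 26.8 FPKM for PF against 32.7 for PJ, and the histone-fold subunits POLE3 and POLE4 at 88.6 and 96.5 and 16.0 and 25.3 FPKM. POLE3 and POLE4 encode partners in a dimer, yet POLE3 stood higher in both libraries. POLE2, POLE3 and POLE4 were higher in PJ and POLE lower, each with bounds apart, beside 44.5% and 18.2% of all tested symbols. POLE2 lay above its own bounds in PF (19.2 to 22.9). POLE3 did so in both libraries (77.1 to 82.9 in PF and 85.1 to 90.5 in PJ), and its PF value lay within the PJ bounds. With the median ratio divided out POLE3 was at -0.12.

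PCNA (ENSG00000132646.6; chromosome 20, 5095599 to 5107272, hg19), the sliding clamp that tethers polymerases to DNA, was the most abundant member, at 457 FPKM (bounds 457 to 471) for PF against 264 (262 to 274) for PJ. It was 1.73-fold lower in PJ, with bounds apart, a log2 ratio of -0.79, or -1.03 with the median ratio divided out. The genes of its loader RFC, which opens the clamp, stood lower: RFC1, the large subunit, was at 29.6 FPKM for PF against 39.9 for PJ, RFC2 at 61.5 and 70.1, RFC3 at 22.7 and 35.1 and RFC5 at 69.9 and 67.6. RFC3 and RFC1 were higher in PJ with bounds apart, as were 44.5% of all tested symbols, and the bounds of RFC2 and RFC5 overlapped.

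All 3 subunit genes of RPA, which coats single-stranded DNA, were higher in PJ with bounds apart, as were 44.5% of all tested symbols. RPA1, the large subunit, was at 70.7 FPKM (bounds 65.8 to 72.8) for PF against 101 (93.8 to 102) for PJ, and RPA2 at 45.9 FPKM (bounds 44.2 to 48.2) for PF against 68.3 (66.2 to 71.3) for PJ. RPA3, the small subunit, was at 28.6 FPKM (bounds 25.6 to 31.5) for PF against 74.0 (68.5 to 79.7) for PJ, 2.59-fold apart. In PF the subunits differed 2.47-fold from highest to lowest and in PJ 1.47-fold. The spans of RPA3 and RPA1 overlap other expressed rows that were also higher in PJ, given below, so reads may be shared.

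As deposited, the lagging-strand enzymes differed in opposite directions. FEN1, the flap endonuclease, was at 86.1 FPKM (bounds 84.4 to 89.5) for PF against 100.2 (98.2 to 104) for PJ, and LIG1, the ligase that seals Okazaki fragments, at 63.0 FPKM (bounds 60.7 to 66.3) for PF against 38.8 (37.0 to 41.2) for PJ. LIG1 had a log2 ratio of -0.68, the third lowest of the 49 genes. With the median ratio divided out both were lower in PJ, FEN1 at -0.027 and LIG1 at -0.92. TOP2A, the topoisomerase that separates sister chromatids, was at 46.8 FPKM (bounds 43.8 to 47.2) for PF against 47.1 (46.0 to 48.2) for PJ, with a log2 ratio of 0.0093.

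Genes for nucleotide supply were abundant in both libraries. TK1, the cytosolic thymidine kinase, was at 283 FPKM (bounds 278 to 294) for PF against 229.8 (225 to 239) for PJ. RRM1, the large subunit of ribonucleotide reductase, was at 100.3 FPKM (bounds 98.3 to 102) for PF against 93.7 (91.3 to 96.1) for PJ. RRM2, the small subunit made in S phase, was at 151 FPKM for PF against 198 for PJ, above its own bounds in both (138 to 147 and 178 to 190); pseudogene rows named RRM2P3 and RRM2P2 carried 9.68 and 2.93 FPKM in PF, so part of its reads may be shared. TK1 and RRM1 were lower in PJ with bounds apart and RRM2 higher, beside 18.2% and 44.5% of all tested symbols.

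The most abundant replication genes were mostly the ones lower in PJ, a pattern noticed after the values were seen. Of the 10 members with a mean of 100 FPKM or more, 8 were lower in PJ (PCNA, TK1, MCM2, MCM3, MCM4, MCM5, MCM7 and CDT1), while POLD2 and RRM2 were higher. Among 905 protein-coding symbols with such a mean 28.5% were lower in PJ. Of the 39 other members 29 were higher in PJ and 10 lower, beside 65.8% and 34.2% of all tested symbols. Across the 49 genes the Spearman correlation of level with log2 ratio was -0.523, and across protein-coding symbols expressed in both libraries it was 0.021; both share the same 2 libraries, and the level enters the ratio. The 20 genes with an E2F-type word had a median log2 ratio of 0.028, 10 higher and 10 lower. The 23 genes without one that had both values had a median of 0.22, 18 higher and 5 lower. These counts too are to be read beside 65.8% and 34.2% of all tested symbols. The 6 genes without a promoter window are in neither class, 3 of them higher and 3 lower. Among them is MCM4, with the lowest log2 ratio of the 49 genes. The part of the words in these ratios was not tested. Summed over the 49 genes, FPKM was 3568 in PF and 3399 in PJ.

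Several replication enzymes have related genes as counterparts, most of which serve repair, mitochondria or resting cells. In each pair compared here the replication gene was higher than its counterpart in both libraries. The pairs come from a list of related genes that was chosen with earlier results of these data known, and not every gene on it was paired. RRM2 was 4.95 times RRM2B, the p53-induced reductase subunit gene, in PF and 14.2 times in PJ; RRM2B was at 30.6 FPKM for PF against 14.0 for PJ. TK1 was 59.0 and 22.6 times TK2, the mitochondrial thymidine kinase gene (4.79 and 10.2 FPKM). LIG1 was 7.50 and 2.39 times LIG3 (8.40 and 16.2) and 26.9 and 8.34 times LIG4 (2.34 and 4.66), ligase genes of repair. DBF4 was 4.05 and 1.80 times DBF4B (4.70 and 15.8), which is itself counted below as an initiation gene. TOP2A and TOP2B, the latter expressed also outside the cell cycle, were closest, with ratios of 1.55 and 1.22 (30.2 and 38.7 for TOP2B). Of the other related genes on the list, RPA4 was at 0.0448 FPKM for PF against 0.116 for PJ, MCM8 at 10.5 and 15.0, MCM9 at 7.28 and 6.48, and the repair and mitochondrial polymerase genes POLB, POLG and POLL at 36.0 and 34.1, 16.3 and 20.0 and 4.77 and 16.2 FPKM.

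**Figure D4:**
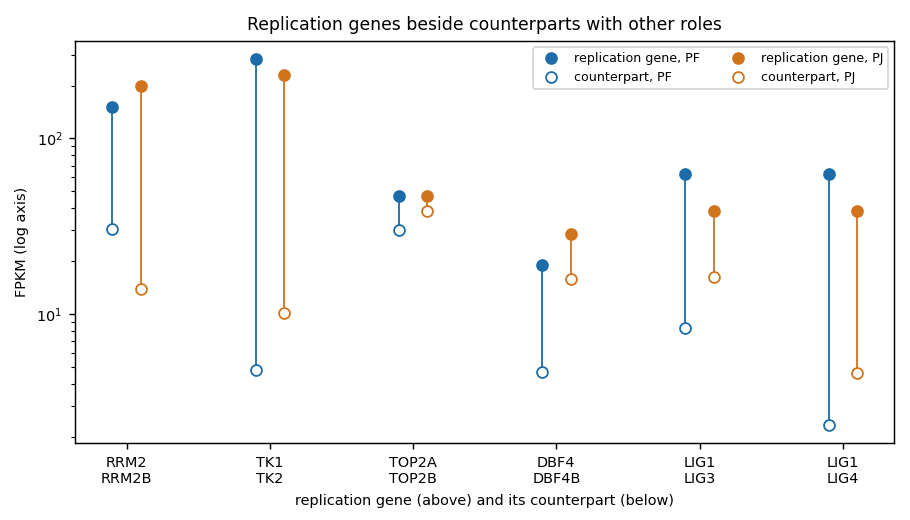
FPKM (log axis) of replication genes (filled) and their counterparts (open) in PF and PJ, with a line joining each pair within a library. The filled point is the higher of the 2 in every pair and library, with the smallest distance for TOP2A and TOP2B.

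Other genes of replication were expressed as well, and their shares higher in PJ are to be read beside the 65.8% of all tested symbols (50.5% with the median ratio divided out), their expressed shares beside 57.3% of protein-coding symbols and their 2-fold counts beside 10.4% higher and 5.22% lower. Of 11 measured initiation genes 10 reached 1 FPKM in both libraries and of these 8 were higher in PJ, 2 of them 2-fold (DBF4B and LRWD1); with the median ratio divided out 7 were higher, 1 of them 2-fold. MCMBP, an MCM-binding protein gene, was at 103 FPKM for PF against 158 for PJ. CDCA5, a sister chromatid cohesion gene that is counted in this list, was at 69.6 and 84.3. TOPBP1, with the lowest log2 ratio (-0.27), was at 39.8 and 32.8. GMNC had the lowest level, at 0.0632 and 0.114. RECQL4 had no value in PF. Of 21 genes of the fork and its processing 20 passed, 15 were higher in PJ and 5 lower, and DSCC1, TIPIN and WDHD1 were 2-fold higher; with the ratio divided out 13 were higher and 1 was 2-fold higher. SSBP1, which serves mitochondrial DNA, was at 209.7 and 254 FPKM, the PCNA-associated factor gene listed as KIAA0101 at 133 and 105, CHTF8 at 69.9 and 101, DSCC1 of the alternative clamp loader at 14.5 and 41.6 and ATAD5, a clamp unloader gene, at 7.19 and 4.32. All 14 other nucleotide genes passed, with 10 higher in PJ (8 with the ratio divided out): NME1 was at 424 and 514, IMPDH2 at 275 and 361, TYMS at 296 and 266 and UMPS, the only 1 that was 2-fold higher, at 13.7 and 47.1 FPKM, while RRM2B was the only 1 that was 2-fold lower. Of 10 genes that rebuild chromatin behind the fork all passed and 0 differed 2-fold; 6 were higher in PJ and 4 lower, or 4 and 6 with the ratio divided out. Of these SSRP1 was at 181 and 226, NASP at 241 and 166, DNMT1, the maintenance methyltransferase gene with the lowest log2 ratio (-0.74), at 150.2 and 89.6, CHAF1A at 27.7 and 43.2 and ASF1A at 12.9 and 15.5.

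Most p53 targets were lower in PJ, while cell cycle regulators and mitotic genes as lists were higher about as often as all tested symbols (65.8%); the part of these genes in the differences of the replication genes was not tested. Of 24 regulators 16 were higher in PJ and 8 lower, and with the median ratio divided out 10 were higher and 14 lower (50.5% and 49.5% of all). As deposited 2 were 2-fold lower, beside 5.22% of all: CDKN1A, the gene of the CDK inhibitor p21, at 195 FPKM for PF against 7.71 for PJ, and E2F2 at 30.3 and 11.3; with the ratio divided out E2F1 and E2F7 joined them, 4 in all, beside 7.14%. E2F1 was at 36.7 and 18.5 FPKM (log2 ratio -0.96) and E2F7 at 17.2 and 9.06 (-0.85); these 3 E2F genes were named after their values were seen. TFDP1, the E2F partner gene, was at 130.1 and 171, MYBL2 at 96.5 and 96.7, CCNE1 at 20.6 and 33.4, the highest log2 ratio of the list (0.67), and RBL2 at 3.05 and 4.94. Of 14 p53 target genes 13 were lower in PJ (34.2% of all), 10 of them 2-fold (5.22% of all), with a median log2 ratio of -1.17; GADD45A was at 97.7 and 40.8, BAX at 74.4 and 59.6, ZMAT3 at 5.99 and 2.25 and XPC at 15.2 and 16.1 FPKM. Of 20 mitotic genes 14 were higher in PJ, with AURKA (13.5 and 66.1), CDC20 (92.3 and 221) and CENPA (18.6 and 38.3) 2-fold (10.4% of all); with the ratio divided out 11 were higher and 9 lower, and CENPA, at 0.76, was no longer 2-fold higher. In the same list CCNB1 was at 147 and 285, UBE2C at 184 and 221, CENPE at 4.97 and 6.96 and KIF23, with the lowest log2 ratio, at 62.5 and 48.5. In bulk RNA, fewer cells in a given phase and less RNA per cell cannot be told apart.

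Several replication genes have a neighbour on the other strand that starts close upstream. A start is here the outer end of a deposited span, which need not be the main promoter of the gene. In the deposited hg19 spans, with strand taken from GENCODE by identifier, 10 of 50 members, or 1 in 5, had a protein-coding gene on the other strand starting within 1000 bp upstream, against 7.22% of all 19163 protein-coding rows and 10.1% of the 10981 rows of expressed symbols. MCM4 and PRKDC, the gene of a repair kinase, start 2 bp apart, and PRKDC was at 90.5 and 71.7 FPKM in PF and PJ, lower in PJ like MCM4. PCNA and CDS2, a lipid synthesis gene, start 160 bp apart, and CDS2 was at 13.9 and 15.2 FPKM. ORC6 and VPS35, an endosomal sorting gene, start 125 bp apart, and VPS35 was at 33.1 and 64.3. TK1 and AFMID start 84 bp apart, with AFMID at 51.4 and 61.8, and LIG1 and the gene listed as C19orf68 start 89 bp apart, the latter at 4.96 and 3.05. The remaining pairs were ORC1 with PRPF38A (10.8 and 30.7), ORC3 with RARS2 (22.1 and 29.3), CDC45 with UFD1L (97.6 and 111), POLD3 with LIPT2 (1.69 and 2.35) and GINS3 with PRSS54 (0.00473 and 0.101).

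Precision rests on the deposited bounds, and 8 of 49 replication genes (MCM4, POLD2, POLD3, POLE2, POLE3, RFC1, RFC5 and RRM2), or 16.3%, had an estimate outside its own bounds in at least 1 library, as had 16.2% of all expressed symbols. Spans of 17 members overlap a row at 1 FPKM or more in at least 1 library. Among these were PRIM1 with NACA (497 and 662 FPKM) and POLA1 with the pseudogene EEF1B2P3 (363 and 403). POLE overlaps the pseudogene RPS11P5 (295 and 310) and PGAM5 (85.8 and 136). Other cases were FEN1 with C11orf10 (104 and 143), MCM2 with TPRA1 (23.4 and 38.7) and MCM7 with AP4M1 (6.50 and 12.4). RPA3 overlaps AC006465.3 (10.2 and 23.0), and RPA1 overlaps SMYD4 (1.49 and 6.52) and the pseudogene AC016292.3 (33.8 and 43.2). Strand is not stated for these libraries, so such reads may be shared. The cells carried epithelial transcripts: 9 of 10 epithelial markers reached 1 FPKM in both libraries, VIL1 being the exception, with EPCAM at 213 and 143 FPKM. Their summed level was 1645 FPKM in PF and 924 in PJ, and 7 of the 9 were lower in PJ, 4 of them 2-fold (34.2% and 5.22% of all tested symbols). ELF3, an epithelial transcription factor gene, was at 76.3 FPKM for PF against 1.02 for PJ, and CDH1, the E-cadherin gene, at 21.9 and 1.80, 12.2-fold apart. The keratin genes KRT8, KRT19 and KRT18 were at 760.4 and 279.6, 306 and 325 and 216 and 147 FPKM. Of 6 fibroblast markers 1 passed (COL1A1, 7.28 and 2.93), with summed levels of 7.55 and 3.97 FPKM, and of 4 endothelial and 6 immune markers 0 passed, with sums of 0.245 and 0.148, and of 0.618 and 1.73; LUM and MS4A1 were listed at 0 in PJ. The part of these markers in the differences of the replication genes was not tested.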

How the data were processed

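RNA of 2 HCT116 cultures was taken with TRIzol and made into paired-end Illumina TruSeq V2 libraries from 1 µg of total RNA, per the labels' protocols. The tools listed are TopHat2 2.0.8b, TopHat and Cufflinks and the genome is hg19, per the submitters' processing notes; the annotation release is not given in the sources used here. Deposited by the authors were FPKM values with 95% bounds and a status per gene, per the file headers. Depth is unknown. Status FAIL was treated as missing.

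FPKM of rows sharing a symbol were summed. Fold differences use log2(FPKM + 1), symbols whose mean reached 1 FPKM, and a 2-fold limit. Each side is 1 library, so no test was run. Gene types and strands came from GENCODE release 29 by identifier (88.7% of rows) and promoter sequences from RefSeq (GRCh38.p14). No coordinate of these was joined to hg19.

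The members, lists and rules were chosen with earlier results of these data known. All 50 members and the related genes are named; of each other list of replication, cell cycle or p53 genes the 3 highest means, the lowest and the largest log2 ratio each way. Marker lists are given by counts and sums. Genes given as 2-fold examples were named after their values were seen, and so were E2F1, E2F2, E2F7 and RECQL4, the overlapping and neighbouring genes, the pseudogenes and the single markers. MCIDAS was not used here. Scripts were tested on simulated data and ran in Python 3.11.15, numpy 2.4.6, pandas 2.3.3 and matplotlib 3.10.9.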

Additional observations from a re-analysis of the deposited data

How the results depend on the processing

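The count of members expressed in both libraries stayed between 47 and 50 under all alternatives run, and that of members at 10 FPKM or more between 47 and 48. The median level of 5.56 ranged from 5.43 (PF alone) to 5.51 (PJ alone) with 1 library left out, and was 5.44 with the median PJ to PF ratio divided out. With a 1.5-fold limit, 10 members were higher in PJ and 3 lower (MCM4, PCNA and LIG1), in place of 3 and 0. Dividing out the median ratio gave 2 higher and 2 lower and moved the median log2 ratio from 0.19 to -0.027, and 9 of 49 genes changed sign (MCM10, GINS2, POLA1, POLD1, POLD4, POLE3, RFC2, FEN1 and TOP2A). Equal sums over rows of 200 bp or more, a PJ to PF ratio of 1.02, changed the sign of TOP2A only. The midpoint of the deposited bounds, added after the data were seen, changed the sign of POLD3 only and left 2 members 2-fold higher. MCM2 to MCM7 were lower in PJ, 6 of 6, and RPA1 to RPA3 higher, 3 of 3, under both rescalings and with the midpoint of the bounds. The rest of the 8 settings tried for the ratio could not change the direction of a gene. ORC2 left the 2-fold class under both rescalings and, by a margin under the rounding, with the midpoint of the bounds. For E2F-type words, the shorter words TTCCCGC and TTGGCGC were held by 28 of 44 members and 11.0% of all genes; the first listed window alone, an alternative added after the data were seen, gave 18 of 44 and 3.33%. No paired analysis was possible because the 2 libraries form 1 group. Unknown depth limits what can be said of the lowest values.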
